A study of Mus musculus with 6 samples.

Results

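The NADPH oxidase is represented here by 6 genes, Cybb, Cyba, Noxa1, Ncf1, Ncf4 and Rac2, of 15944 genes in the deposited table, and all 6 were found by gene symbol. They were selected on the difference in normalized counts between RORγt+ and CCR6+RORγt- Treg libraries, which was already known when the list was drawn up, and on their membership of the enzyme. The question put to them was whether Cybb moves with the other subunits. The differences between groups given for these genes are therefore a description and carry no test.

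Bulk RNA-seq was done on Tregs, the regulatory CD4+ T cells that hold immune responses in check and depend on the transcription factor Foxp3, taken from spleens of C57BL/6 mice. The first group, RORγt+ Tregs, held CD3+CD4+ cells positive for a red Foxp3 reporter and for a green reporter of the transcription factor RORγt. The second group, CCR6+RORγt- Tregs, was positive for the red reporter, negative for the green one and stained for the chemokine receptor CCR6, so that both groups carried the reporters. Each group had 3 libraries, from CD4+ cells enriched on magnetic columns before the flow sort, and neither the age of the mice nor the animals behind each library are given in the sources used here, so the spread between libraries may be technical.

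The NADPH oxidase of phagocytes moves electrons from NADPH across a membrane to oxygen and so makes superoxide, from which hydrogen peroxide and other reactive oxygen species form. Its membrane core is a pair of proteins, the catalytic chain encoded by Cybb and its stabilizing partner encoded by Cyba, and the core is inactive until cytosolic subunits and a Rac GTPase join it. The enzyme is best known in neutrophils and macrophages, where it serves in the killing of microbes, and its subunits are also found in lymphocytes.

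The promoters of the members are shown because the results turn on whether genes of 1 enzyme complex moved together. RefSeq sequences (GRCm38.p6) of 250 bases before to 50 bases after the start site were matched for 4 of the 6 members, Cybb, Cyba, Noxa1 and Ncf1. All 4 lie on the minus strand and are printed 5′ to 3′ along the gene. Capitals mark every match, on either strand, to 5 short motifs: GAGGAA (a core bound by ETS factors such as PU.1), CCAAT (a box bound by NF-Y), AGGTCA (the half-site bound by ROR receptors), GGGCGG (a GC box) and TATAAA.
Cybb, chrX:9469275-9469574: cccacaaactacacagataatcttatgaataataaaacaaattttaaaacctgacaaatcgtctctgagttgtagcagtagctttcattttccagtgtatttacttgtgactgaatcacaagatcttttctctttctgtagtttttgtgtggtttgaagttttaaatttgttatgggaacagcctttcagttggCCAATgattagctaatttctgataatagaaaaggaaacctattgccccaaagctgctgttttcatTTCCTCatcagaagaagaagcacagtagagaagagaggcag
Cyba, chr8:122432891-122433190: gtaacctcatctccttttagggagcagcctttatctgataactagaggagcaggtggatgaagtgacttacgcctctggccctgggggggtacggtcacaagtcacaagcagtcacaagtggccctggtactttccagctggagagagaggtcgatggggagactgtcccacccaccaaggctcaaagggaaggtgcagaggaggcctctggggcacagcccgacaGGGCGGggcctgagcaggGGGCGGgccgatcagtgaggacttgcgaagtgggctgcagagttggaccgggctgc
Noxa1, chr2:25095156-25095455: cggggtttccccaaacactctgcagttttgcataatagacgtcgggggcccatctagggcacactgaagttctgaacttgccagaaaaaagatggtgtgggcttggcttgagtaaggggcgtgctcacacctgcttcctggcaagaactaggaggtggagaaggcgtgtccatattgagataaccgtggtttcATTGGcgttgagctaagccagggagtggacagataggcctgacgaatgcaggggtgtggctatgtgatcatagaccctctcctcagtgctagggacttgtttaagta
Ncf1, chr5:134229576-134229875: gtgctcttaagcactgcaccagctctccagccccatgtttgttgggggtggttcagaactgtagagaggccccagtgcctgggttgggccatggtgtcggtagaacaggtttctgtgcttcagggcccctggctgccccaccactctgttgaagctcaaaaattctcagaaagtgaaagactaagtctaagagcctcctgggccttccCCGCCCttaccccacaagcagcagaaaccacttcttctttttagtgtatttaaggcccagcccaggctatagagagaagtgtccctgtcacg

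The 4 windows had little in common in these letters. The Cybb promoter held CCAAT at base −56 from the start site and GAGGAA on the minus strand at base 10, where it reads TTCCTC. The Noxa1 window held CCAAT on the minus strand at base −57, where it reads ATTGG, and neither of the other 2 windows held that motif. Cyba had GC boxes at bases −24 and −6, and Ncf1 had 1 on the minus strand at base −42, where it reads CCGCCC. None of the 4 windows held AGGTCA or TATAAA. Among all 32851 RefSeq mouse promoters of the same length, 37.4% held CCAAT, 35.7% GGGCGG, 28.3% GAGGAA, 16.3% AGGTCA and 13.6% TATAAA. Base composition set Cybb apart from the other 3, with 35.3% GC and 1 CpG against a median of 52.7% and 7 CpG over all promoters, while Cyba had 60.7% and 9, Noxa1 52.0% and 8, and Ncf1 54.0% and 3. The RefSeq window of Noxa1 lies wholly before the first base of the gene in GENCODE, so the annotations place its start differently, by 56 bases or more. The RefSeq start of Cybb is that of the GENCODE transcript Cybb-201, but GENCODE also has a transcript, Cybb-205, that begins 18447 bases further upstream, and the promoter of that one is not shown.

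The values are normalized counts, that is, read counts that the authors scaled between libraries, so they compare 1 gene across libraries and not 1 gene with another. Library depth was roughly estimated by dividing each column's total by the even spacing that best fitted its low values. It was about 9230000 to 14500000 reads. RORγt+ replicate 3 stood apart from the rest: it was the shallowest, listed 1247 genes at 0 against 438 to 638 in the other libraries, and correlated less with them (0.932 to 0.938, against 0.947 to 0.967 among the other 5). The Treg marker Foxp3 averaged 11505 ± 963.3 normalized counts in RORγt+ Tregs and 9963 ± 203.2 in CCR6+RORγt- Tregs (SD, n = 3 each; limma adjusted p = 0.5952).

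Cybb, the catalytic chain of the oxidase (also called gp91phox or NOX2), lies on chromosome X at 9435252 to 9487771 (GRCm38, minus strand, 13 exons, ENSMUSG00000015340). It had 197.32, 269.29 and 202.55 normalized counts in the 3 RORγt+ libraries, against 798.04, 916.84 and 929.19 in the 3 CCR6+RORγt- libraries. Every RORγt+ library was far below every CCR6+RORγt- library. The means were 223.1 ± 40.13 and 881.4 ± 72.42 normalized counts (SD, n = 3 each), a log2 difference of −1.99 ± 0.17 (SE, on log2(value + 1), RORγt+ minus CCR6+RORγt-), and the CCR6+RORγt- mean was 3.95 times the RORγt+ mean. Only 1.39% of all genes had a lower log2 difference. In bulk samples, fewer cells that express a gene and less of its RNA per cell cannot be told apart. None of the 31-base windows of the Cybb transcripts occur in transcripts of other genes, so its reads are its own.

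Cyba encodes p22phox, the membrane partner that stabilizes the catalytic chain (chromosome 8, 122424776 to 122432930, minus strand, 6 exons, ENSMUSG00000006519). It did not follow Cybb: it had 1094.37, 982.23 and 1723.62 normalized counts in RORγt+ libraries, against 943.62, 911.71 and 863.33 in CCR6+RORγt- libraries. The groups did not overlap, with RORγt+ Tregs on the higher side, but by a small gap except in RORγt+ replicate 3. The means were 1266.7 ± 399.6 and 906.2 ± 40.43 normalized counts (SD, n = 3 each), and the log2 difference was 0.44 ± 0.22 (SE). It was 0.20 without RORγt+ replicate 3. Of the 31-base windows of Cyba, 7.39% also occur in transcripts of other genes, and Gm20388, which overlaps it on the other strand, had 0, 0 and 897.92 normalized counts in RORγt+ libraries, against 455.87, 0 and 330.31 in CCR6+RORγt- libraries. How the reads were divided between the overlapping genes is not given in the sources used here, so the level of Cyba is uncertain.

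Among the cytosolic subunits, Noxa1 was the member that lay on the same side as Cybb. Noxa1 encodes an activator of the oxidase and is known mostly as a partner of the oxidase NOX1 (chromosome 2, 25085667 to 25095149, minus strand, 12 exons, ENSMUSG00000036805). It had 10.67, 9.21 and 6.32 normalized counts in RORγt+ libraries, against 46.36, 50.98 and 56.28 in CCR6+RORγt- libraries. The groups did not overlap, and the lowest CCR6+RORγt- library was well above the highest RORγt+ library. The means were 8.73 ± 2.21 and 51.2 ± 4.96 normalized counts (SD, n = 3 each), the log2 difference was −2.45 ± 0.35 (SE), and the CCR6+RORγt- mean was 5.86 times the RORγt+ mean. Its RORγt+ values rest on roughly 10 reads or fewer in each library, since 1 read was worth 0.82 to 1.24 normalized counts. Of its windows, 1.24% are shared, all with Entpd8, a gene that overlaps it.

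Ncf1, which encodes p47phox, the organizer that brings the cytosolic subunits to the membrane, lay on the opposite side (chromosome 5, 134220053 to 134229625, minus strand, 10 exons, ENSMUSG00000015950). It had 192.78, 193.48 and 238 normalized counts in RORγt+ libraries, against 106.57, 156.43 and 93.51 in CCR6+RORγt- libraries. The groups did not overlap, and RORγt+ Tregs were higher, although the highest CCR6+RORγt- library came near the lowest RORγt+ one. The means were 208.1 ± 25.91 and 118.8 ± 33.21 normalized counts (SD, n = 3 each), a ratio of 1.75 and a log2 difference of 0.83 ± 0.24 (SE). It shares 9.84% of its windows with other genes, most of them with Gtf2ird2, which overlaps it on the other strand and had 197.39, 163.54 and 218.82 normalized counts in RORγt+ libraries, against 159.05, 161.82 and 148.08 in CCR6+RORγt- libraries. Reads of the pair cannot be told apart where counting ignores strand, and whether it did is not given in the sources used here.

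Ncf4 encodes p40phox, which binds the membrane lipid phosphatidylinositol 3-phosphate on the phagosome (chromosome 15, 78244801 to 78262580, plus strand, 10 exons, ENSMUSG00000071715). It had 798.82, 694.98 and 968.21 normalized counts in RORγt+ libraries, against 744.52, 695.76 and 717.31 in CCR6+RORγt- libraries. The groups overlapped, and RORγt+ replicate 3 was the highest of the 6 libraries. The log2 difference was 0.18 ± 0.16 (SE) and 0.05 without that library.

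Rac2 encodes the Rac GTPase of blood cells, which joins the active complex and also steers the actin skeleton (chromosome 15, 78559167 to 78572783, minus strand, 7 exons, ENSMUSG00000033220). It had 11225.7, 10835.89 and 21202.28 normalized counts in RORγt+ libraries, against 17977.71, 13177.94 and 12603.84 in CCR6+RORγt- libraries. The groups overlapped, with 1 high library in each. Apart from RORγt+ replicate 3, the RORγt+ libraries were below every CCR6+RORγt- library. The log2 difference was −0.07 ± 0.28 (SE), and its sign turned with the libraries used, between −0.39 and 0.10 when each library was left out in turn; the lowest of these was without RORγt+ replicate 3.

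**Figure D1:**
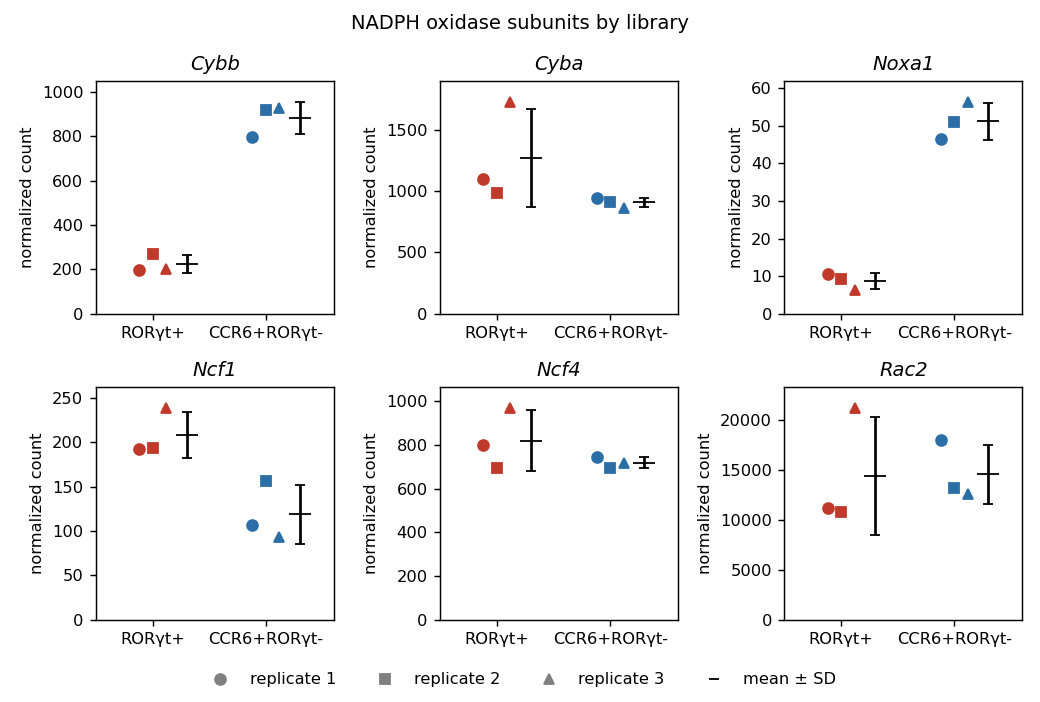
Normalized counts (linear axis from 0) of the 6 members in each of the 6 libraries, RORγt+ Tregs on the left and CCR6+RORγt- Tregs on the right of each panel; marker shapes give the replicate number, and bars are the mean ± SD of 3 libraries. Cybb and Noxa1 are lower in every RORγt+ library, Cyba and Ncf1 are higher in every RORγt+ library, and Ncf4 and Rac2 overlap; RORγt+ replicate 3 is the highest library for Cyba, Ncf1, Ncf4 and Rac2.

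Cybb therefore lay on the same side as Noxa1, with Cyba and Ncf1 on the opposite side and Ncf4 and Rac2 overlapping. The side of Rac2 depended on RORγt+ replicate 3, without which its RORγt+ libraries were all below the CCR6+RORγt- libraries. In the fit across all genes (limma on log2(value + 1), called at a Benjamini-Hochberg adjusted p under 0.05), RORγt+ Tregs were lower in 2 of the 6 members and higher in 0, where 0.564% of all genes were called, 0.245% lower and 0.32% higher; since the members were chosen with this contrast known, nothing is read from that share. The groups did not overlap in 4 members, 2 lower and 2 higher in RORγt+ Tregs, against 18.1% of all genes, 9.81% lower and 8.31% higher. The members' median log2 difference was 0.05, beside −0.01 over all genes. For the same reason the calls of Cybb and Noxa1 are a description and not a test of these genes. They varied with the libraries used. Without RORγt+ replicate 3 both genes were called, and without RORγt+ replicate 2 Cybb alone was. Without RORγt+ replicate 1 or any CCR6+RORγt- library neither gene was called.

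**Figure D2:**
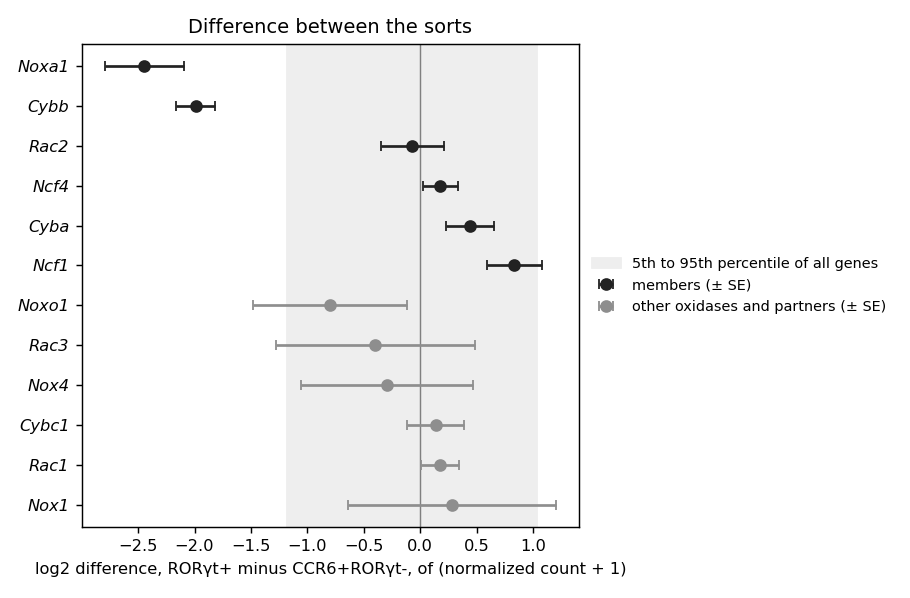
Log2 difference, RORγt+ minus CCR6+RORγt-, of the 6 members (black) and of 6 other oxidases and partners (grey), with the standard error of each as a bar and the 5th to 95th percentile of all genes as a band. Cybb (−1.99) and Noxa1 (−2.45) lie below the band, which runs from −1.18 to 1.04, and the points of the other 4 members and of the 6 partners lie inside it.

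Because 4 members were highest in RORγt+ replicate 3, that library was set against RORγt+ replicates 1 and 2 over the 11649 genes with a mean of at least 20 normalized counts. On the log2 scale it was higher by 0.94 for Rac2, 0.73 for Cyba, 0.38 for Ncf4 and 0.30 for Ncf1, and it was lower for Cybb (−0.19) and Noxa1 (−0.58), with a median over all genes of 0.03. The shift moved with base composition, taken as the GC content of each gene's longest transcript. Its median was −0.71 over the 2322 genes with the lowest GC content (30.96% to 43.54%). It was 0.40 over the 2321 genes with the highest (55.05% to 69.25%). That GC content was 59.27% for Cyba, 55.67% for Ncf4, 53.44% for Ncf1 and 52.8% for Rac2, against 42.42% for Cybb, while Noxa1 had 56.77%. The shift moved with the length of the longest transcript too. Its median was 0.26 over the 2322 genes with the shortest (87 to 1674 bases) and −0.37 over the 2321 with the longest (5122 to 123179 bases). That length is 2882 bases for Ncf1 and 3038 for Rac2, among those of 2750 to 3771 bases, where the median was 0.05. It is 744 bases for Cyba, 1464 for Ncf4 and 1617 for Noxa1, against 4752 for Cybb. Cybb thus falls below the longest genes, among those of 3772 to 5118 bases, where the median was −0.06. The part of GC content and of length in the members' values in this library was not tested. The differences of Cybb and Noxa1 did not rest on that library: without it they were −1.93 and −2.25 on the log2 scale, and they ranged from −2.13 to −1.91 for Cybb and from −2.59 to −2.25 for Noxa1 over the 6 fits that left out a library.

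Levels of different subunits can be compared only per length, so each value was divided by the length of the gene's exons in kilobases. Rac2 stood highest, at 4647.5 ± 1893.6 normalized counts per kilobase in RORγt+ Tregs and 4700.8 ± 951 in CCR6+RORγt- Tregs (SD, n = 3 each, here and for the levels that follow). Cyba came next, at 1219.2 ± 384.6 in RORγt+ Tregs and 872.2 ± 38.91 in CCR6+RORγt- Tregs, and then Ncf4, at 406.3 ± 68.28 in RORγt+ Tregs and 356 ± 12.1 in CCR6+RORγt- Tregs. That order of the top 3 held in all 6 libraries. The order below them differed between the groups. In each RORγt+ library Ncf1 came next and then Cybb, at means of 56.8 ± 7.07 and 38.4 ± 6.91 normalized counts per kilobase, followed by Noxa1 at 5.401 ± 1.369. In each CCR6+RORγt- library Cybb came next, at 151.7 ± 12.47, with Ncf1 at 32.4 ± 9.07 and Noxa1 at 31.7 ± 3.07 below it. Within RORγt+ Tregs no neighbours in this order had overlapping libraries; within CCR6+RORγt- Tregs Ncf1 and Noxa1 overlapped, and Noxa1 was above Ncf1 in replicate 3.

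**Figure D3:**
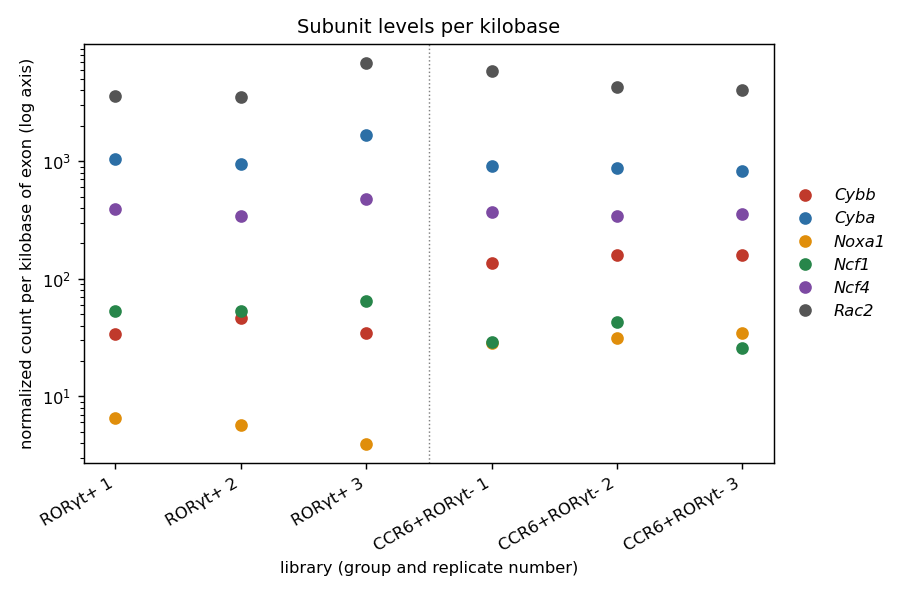
Normalized counts per kilobase of exon (log axis) of the 6 members in each library, RORγt+ Tregs left of the dotted line and CCR6+RORγt- Tregs right of it, 1 point per gene and library. Cybb lies below Ncf1 in the RORγt+ libraries and above it in the CCR6+RORγt- libraries, while Rac2, Cyba and Ncf4 keep their order throughout.

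The balance of subunits within a library follows from the same values. The ratio of Cyba to Cybb, the 2 chains of the membrane core, per kilobase was 31, 20.4 and 47.6 in RORγt+ libraries, against 6.61, 5.56 and 5.19 in CCR6+RORγt- libraries. RNA of the catalytic chain was thus the scarcer of the pair in every library, and more so in each RORγt+ library than in any CCR6+RORγt- library. The ratio of Cybb to Ncf1, the catalytic chain to its organizer, was 0.646, 0.878 and 0.537 in RORγt+ libraries, against 4.72, 3.70 and 6.27 in CCR6+RORγt- libraries. The ratio lay on opposite sides of 1 in the groups. The ratio of Ncf1 to Noxa1, organizer to activator, was 7.98, 9.27 and 16.6 in RORγt+ libraries, against 1.015, 1.36 and 0.734 in CCR6+RORγt- libraries. In these 3 ratios, each of which holds Cybb or Noxa1, the libraries of the groups were fully separated. The ratio of Cyba to Ncf1, without either gene, overlapped, at 17.9 to 25.53 in RORγt+ libraries and 20.55 to 32.55 in CCR6+RORγt- libraries. The ratio of Ncf4 to Ncf1 also holds neither gene, but its groups did not overlap. It was 7.514, 6.514 and 7.377 in RORγt+ libraries, against 12.67, 8.065 and 13.91 in CCR6+RORγt- libraries. Separation was thus not confined to ratios with Cybb or Noxa1. The ratios rest on the values that chose the members and on RNA, not protein.

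To see how close the members' patterns were, each gene was centred on its own mean over the 6 libraries and the root mean square difference of the log2 values was taken against 11648 other genes with a mean of at least 20. Noxa1 ranked 15 among the genes nearest to Cybb, at 0.323, and Cybb ranked 7 among those nearest to Noxa1. Noxa1 reached the mean of 20 only through the CCR6+RORγt- libraries, where it is high, so its rank is partly set by that filter. The other 4 members were far from Cybb, at 1.07 for Rac2, 1.12 for Ncf4, 1.27 for Cyba and 1.44 for Ncf1, and 54.9% to 94.2% of the genes were nearer to Cybb than they were. The genes nearest to Cybb were Nr3c2, the mineralocorticoid receptor (0.147; 26.1 ± 3.57 normalized counts in RORγt+ Tregs and 110.5 ± 24.68 in CCR6+RORγt- Tregs, SD, n = 3 each), Cep112, a centrosomal protein (0.152; 6.98 ± 2.01 in RORγt+ Tregs and 36.2 ± 3.19 in CCR6+RORγt- Tregs), Gm3667 (0.181), Naip5, a sensor of bacterial flagellin (0.195), and Egr2, a transcription factor of T cells (0.267). Naip5 averaged 124.7 ± 33.85 normalized counts in RORγt+ Tregs and 490.5 ± 79.48 in CCR6+RORγt- Tregs, and Egr2 averaged 225 ± 12 in RORγt+ Tregs and 662.6 ± 67.81 in CCR6+RORγt- Tregs (SD, n = 3 each). Cep112, which limma did not call, passed the mean of 20 through the CCR6+RORγt- libraries alone, as Noxa1 did. Naip5 belongs to a family of closely similar genes, so its level is uncertain. The genes nearest to Noxa1 were Hdac9, a histone deacetylase (0.129; 31.5 ± 8.34 normalized counts in RORγt+ Tregs and 161.2 ± 19.03 in CCR6+RORγt- Tregs), Atp2b4, a calcium pump of the plasma membrane (0.137; 490.1 ± 133 in RORγt+ Tregs and 2346 ± 76.04 in CCR6+RORγt- Tregs), and again Gm3667, Naip5 and Cep112 (0.205 to 0.311). The measure picks genes for their pattern, so these values are a description.

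None of 6 genes for other oxidases and partner proteins passed the test. Among these 6, limma called 0 in either direction, 0 had an unadjusted p under 0.05 (against 10.9% of all genes), and their median log2 difference was −0.08, beside −0.01 over all genes. Cybc1, a chaperone of the membrane core, had 1044.17, 987.51 and 1830.33 normalized counts in RORγt+ libraries, against 1305.57, 988.37 and 1101.9 in CCR6+RORγt- libraries (limma adjusted p = 0.9197). Rac1, the widely expressed Rac GTPase, had 3544.79, 3414.44 and 5019.25 in RORγt+ libraries, against 3656.53, 3497.55 and 3312.09 in CCR6+RORγt- libraries (limma adjusted p = 0.7929). For both genes the groups overlapped, and as in Cyba and Rac2 RORγt+ replicate 3 was the highest library. Noxo1, the organizer that partners NOX1, stayed between 5.72 and 17.53 normalized counts in RORγt+ libraries and between 6.55 and 30.15 in CCR6+RORγt- libraries. Nox1 and Nox4, which encode other catalytic chains, and Rac3 were near the level of single reads in most libraries, with Nox1 at 23.53, 1.48 and 2.8 normalized counts in RORγt+ libraries and 3.11, 2.73 and 7.42 in CCR6+RORγt- libraries. Nox3 and the dual oxidases were not analysed here.

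Genes that regulate the oxidase had 0 of 20 members past the test in each direction and a median log2 difference of 0.05. The list held protein kinases that phosphorylate its cytosolic subunits, factors that load or hold Rac, and others such as Hvcn1, Nrros and Pik3c3. At an unadjusted p under 0.05 stood 2 regulators with higher and 3 with lower values in RORγt+ Tregs, where 10.9% of all genes had such a p. Prkca, a protein kinase C that phosphorylates p47phox, was at −0.65 (limma adjusted p = 0.1101), and Tiam1, an exchange factor that activates Rac, at −0.62 (limma adjusted p = 0.2093). On the other side lay Prkcd, another protein kinase C, at 0.42 (limma adjusted p = 0.2487), and Dock2, the main Rac exchange factor of lymphocytes, at 0.33 (limma adjusted p = 0.3141). Arhgdib, which holds Rac in the cytosol, was at 0.12 (limma adjusted p = 0.7833).

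Of 24 genes that remove superoxide and peroxide or repair the damage they do, 1 rose in RORγt+ Tregs, 0 fell and 23 did not pass; 5 had an unadjusted p under 0.05, all higher (10.9% of all genes in either direction), and the median log2 difference was 0.16. The gene that rose was Glrx, glutaredoxin, which uses glutathione to reduce oxidized protein thiols. It had 1303.04, 1468.73 and 1734.36 normalized counts in RORγt+ libraries, against 723.54, 831.61 and 703.94 in CCR6+RORγt- libraries, without overlap. The log2 difference was 0.99 ± 0.15 (SE, limma adjusted p = 0.04527), and the call stood without RORγt+ replicate 3 but was lost when any other library was left out (adjusted p of 0.0933 to 0.2585). Gclm, a subunit of the enzyme that limits glutathione synthesis, was at 0.94 (limma adjusted p = 0.2664), and the peroxiredoxins Prdx4 and Prdx1 were at 0.73 and 0.53 (limma adjusted p = 0.3702 and 0.4551); without RORγt+ replicate 3 the difference of Prdx1 was 0.27. Sod1, the cytosolic superoxide dismutase, was at −0.19 (limma adjusted p = 0.643).

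Genes of the Nrf2 response to oxidants had 0 of 11 members past the test, 0 with an unadjusted p under 0.05 and a median log2 difference of −0.03; Hmox1, heme oxygenase, was at −0.83 (limma adjusted p = 0.5435). The genes that supply NADPH, the substrate of the oxidase, had 0 of 16 rows (14 genes) past the test, 2 with an unadjusted p under 0.05, both higher, near the 10.9% of all genes, and a median of 0.13. Idh1, the cytosolic NADP-dependent isocitrate dehydrogenase, had 173.3, 163.21 and 151.61 normalized counts in RORγt+ libraries, against 85.05, 87.22 and 96.39 in CCR6+RORγt- libraries. Its groups did not overlap, but the log2 difference of 0.85 ± 0.19 (SE) did not pass (limma adjusted p = 0.1408). G6pdx, the first enzyme of the pentose phosphate pathway, was at 0.34 (limma adjusted p = 0.514). Over these 5 lists and that of the promoter factors below, 1 of 90 rows was called, or 1.11%, near the 0.564% of all genes.

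**Figure D4:**
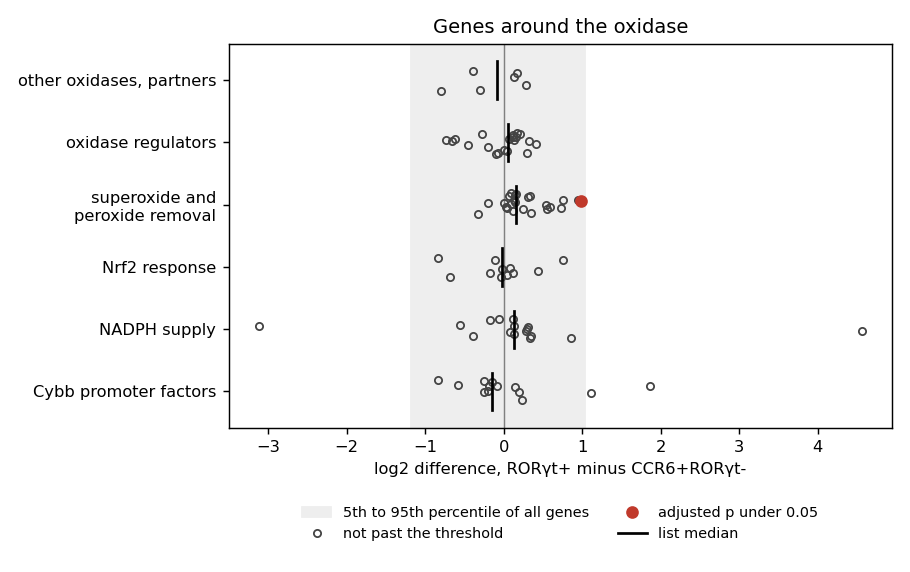
Log2 difference, RORγt+ minus CCR6+RORγt-, of each gene in 6 lists around the oxidase, with list medians as vertical bars and the 5th to 95th percentile of all genes as a grey band. Only Glrx, in the list for superoxide and peroxide removal, is past the adjusted p of 0.05; the points at −3.12 and 4.57 are second gene identifiers of Nadk2 and Nnt, whose levels are uncertain because 2 identifiers share a symbol.

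Transcription factors known to act at the Cybb promoter in blood cells had 0 of 13 members past the test in each direction, 3 with an unadjusted p under 0.05 (1 higher, 2 lower; 10.9% of all genes had such a p) and a median log2 difference of −0.15. Spi1, which encodes PU.1 and binds the ETS core marked in the Cybb promoter in myeloid cells, had 6.76, 11.68 and 5.54 normalized counts in RORγt+ libraries, against 2.69, 2.65 and 0 in CCR6+RORγt- libraries. It lay on the side opposite to Cybb at a level of few reads (limma adjusted p = 0.4058). Irf8, an interferon regulatory factor, had 185.62, 201.19 and 192.79 normalized counts in RORγt+ libraries, against 268.42, 405.31 and 222.97 in CCR6+RORγt- libraries. It lay on the side of Cybb without overlap, but did not pass (log2 difference −0.58, limma adjusted p = 0.4388). Cebpb was at −0.84 (limma adjusted p = 0.3645), Irf1 at −0.25 (limma adjusted p = 0.5792) and Nfkb1 at −0.19 (limma adjusted p = 0.7022).

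Since Cybb, Ncf1, Ncf4 and Rac2 are abundant in myeloid cells and B cells, markers of those cells were summed in each library. The 7 markers of monocytes and macrophages in the table, of 15 listed, summed to 166.7, 202.1 and 100.6 normalized counts in RORγt+ libraries, against 59.58, 76.36 and 45.12 in CCR6+RORγt- libraries. The sums did not overlap and were higher in RORγt+ Tregs, on the side of Ncf1 and opposite to Cybb. The defining marker C1qa was at 0 in all CCR6+RORγt- libraries. None of the 7 passed the test, and 2 had an unadjusted p under 0.05, where 10.9% of all genes had such a p. Itgam, the highest of them, averaged 42.1 ± 17.62 normalized counts in RORγt+ Tregs and 15.5 ± 2.06 in CCR6+RORγt- Tregs (SD, n = 3 each, limma adjusted p = 0.327). The part of such cells in the values of Ncf1 and Cyba was not tested. The 3 neutrophil markers in the table, of 11 listed, summed to 24.12 to 54.54 in RORγt+ libraries and 27.53 to 37.34 in CCR6+RORγt- libraries. Of these, S100a9 had 2.13, 17.8 and 0 normalized counts in RORγt+ libraries and was at 0 in all CCR6+RORγt- libraries. Markers of B cells, 12 genes without the abundant Ighm, summed to 863.4, 458.3 and 566.9 in RORγt+ libraries, against 606.1, 849.6 and 448 in CCR6+RORγt- libraries, and these sums overlapped. The median log2 difference of the 13 B cell markers was 0.60, with Cd79b at 0.08 and Ighm at −0.15. Cd22, a B cell receptor, lay on the side of Cybb, with 105.3, 26.84 and 164.8 normalized counts in RORγt+ libraries, against 312.11, 228.49 and 163.05 in CCR6+RORγt- libraries (limma adjusted p = 0.4364), with overlap. The 5 dendritic cell markers in the table, of 9 listed, summed to 58.01 to 90.39 in RORγt+ libraries and 54.61 to 146.2 in CCR6+RORγt- libraries. Their median log2 difference was −0.91, and 2 of the 5 were lower in RORγt+ Tregs without overlap, against 9.81% of all genes. H2-Ab1, the most abundant of them, lay the other way, at a log2 difference of 0.51 with overlap. Zbtb46, a transcription factor of that list, lay on the side of Cybb without overlap, with 10.87, 12.85 and 9.57 normalized counts in RORγt+ libraries, against 23.19, 20.49 and 24.82 in CCR6+RORγt- libraries (limma adjusted p = 0.3726). Its part, and that of Cd22-bearing cells, in the values of Cybb was not tested. Summed levels of plasma cell markers were 29.59 to 65.04 in RORγt+ libraries and 8.31 to 36.94 in CCR6+RORγt- libraries, with Mzb1 at 0 in all CCR6+RORγt- libraries. No gene of these lists, or of those for natural killer cells, γδ T cells, red cells and platelets, and Treg identity, passed the test. At an unadjusted p under 0.05 stood 0 to 4 rows per list, where 10.9% of all genes had such a p. The 4 were among the 9 rows for Treg identity, 2 higher and 2 lower in RORγt+ Tregs. In that list the groups did not overlap in 3 rows that were higher and 2 that were lower, against 18.1% of all genes. The 2 γδ T cell markers in the table, of 5 listed, summed to 91.96 to 113.4 in RORγt+ libraries and 51.47 to 72.99 in CCR6+RORγt- libraries, without overlap and opposite to Cybb. Most of that sum was Trdc, a γδ receptor constant chain (limma adjusted p = 0.3539). The red cell and platelet sum was 135.5 to 871.4 in RORγt+ libraries, and in CCR6+RORγt- libraries it was 56.79, 4218.3 and 365.1, so that CCR6+RORγt- replicate 2 was the highest.

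**Figure D5:**
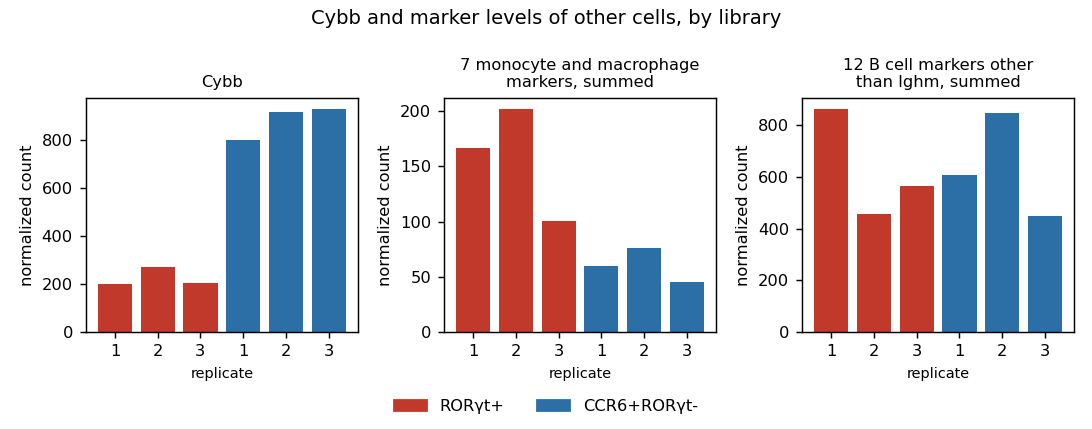
Normalized counts (linear axis from 0) in each of the 6 libraries, RORγt+ replicates in red on the left and CCR6+RORγt- replicates in blue on the right, of Cybb, of 7 summed monocyte and macrophage markers and of 12 summed B cell markers other than Ighm. The monocyte and macrophage sums are 100.6 to 202.1 in RORγt+ libraries and 45.12 to 76.36 in CCR6+RORγt- libraries, opposite to Cybb, while the B cell sums overlap.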

How the data were processed

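The authors deposited 1 table of normalized counts (a signal value per gene and library, to 2 decimals), for 6 libraries. Per the submitters' processing notes, Salmon 1.2.0, DESeq2 (no version) and the GRCm38 build were used, in roles those notes do not state. Strand setting and annotation: not given in the sources used here. Each library's median ratio to the geometric mean over libraries was 1.003. Low values came within 0.1 read of whole reads in 51.5% to 69.9% of cases, too few to recover raw reads, so no count test was run. Groups were taken from the labels.

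Values were analysed as log2(value + 1) over all 15944 genes in R 4.3.3, using a group model in limma 3.58.1 with trended empirical Bayes and two-sided p-values adjusted by Benjamini-Hochberg (threshold 0.05; 4 residual and 3.43 prior degrees of freedom). Fold changes on this scale understate those of low genes. Gene positions and lengths (union of exons, or the longest transcript for the shift of RORγt+ replicate 3) came from GENCODE M21, and 15851 identifiers matched. Shared sequence was counted in 31-base windows.

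The members and gene lists were chosen with earlier results of these data known. Named genes were the members, and from each related list the called genes, up to 4 with the smallest adjusted p and the 2 most abundant. The other oxidases and partners (1 gene of that list is not reported here), up to 3 abundant markers per list, and the 5 genes nearest to Cybb and to Noxa1 were also named; not all are printed, and C1qa, Mzb1 and overlapping genes were added after their values were seen. Alternatives were pseudocounts of 0.1 and 5, equal column totals or upper quartiles, a replicate block, each library left out, a mean of at least 10, array weights, robust empirical Bayes and the longest transcript as length.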

Additional observations from a re-analysis of the deposited data

How the results depend on the processing

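The 90 genes called (51 higher, 39 lower in RORγt+ Tregs) became 358 (170 higher, 188 lower) with array weights, which gave RORγt+ replicate 3 a weight of 0.199. With a library left out the number of calls ranged from 4 to 174 (higher 1 to 85, lower 0 to 89). It was 174 when RORγt+ replicate 3 was dropped, 4 when RORγt+ replicate 1 or RORγt+ replicate 2 was, and 7 to 10 when a CCR6+RORγt- library was. With the replicate number as a block, 1 gene was called (1 higher, 0 lower), and neither Cybb nor Noxa1 was. Same-numbered libraries did not deviate together (correlations −0.105, −0.022 and −0.184, and 0 of 6 libraries correlated best with their own number). With 3 libraries per group and RORγt+ replicate 3 apart from the rest, this check cannot decide whether the numbers pair the libraries. In the lists, calls for superoxide and peroxide removal dropped to 0 with a pseudocount of 0.1 and with the block, and lay between 0 and 1 with a library left out. Array weights called 1 regulator lower (Prkca, limma adjusted p = 0.0318) and 1 gene of NADPH supply higher (Idh1, limma adjusted p = 0.0364). With a library left out, calls for NADPH supply lay between 0 and 1: without CCR6+RORγt- replicate 1 the second identifier of Nnt was called (limma adjusted p = 0.042), and Idh1 was not called in any of those fits. Of the markers, Itgam passed with array weights (limma adjusted p = 0.0468). With a pseudocount of 5 the log2 difference of Noxa1 was −2.04. With the longest transcript as length, levels per kilobase were 46.9 for Cybb, 1702.6 for Cyba, 72.2 for Ncf1 and 560.6 for Ncf4 in RORγt+ Tregs, and 185.5 for Cybb, 1218 for Cyba and 491.3 for Ncf4 in CCR6+RORγt- Tregs. The sign turned for Cybc1 with array weights (−0.068) and, with a library left out, for Cybc1 (−0.15 to 0.30), Rac1 (−0.003 to 0.28), Rac3 (−1.17 to 0.37), Nox1 (−0.72 to 0.93) and Nox4 (−0.97 to 0.14). The cause of these changes was not tested. Depth limits Noxa1, Nox1, Nox4, Rac3 and Spi1 most, which rest on few reads.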
